A study of Mus musculus with 9 samples.

Results

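Cell junction genes were followed in basal keratinocytes of mouse footpad skin, with 9 members chosen by name from a deposited table of 22399 genes. Tight junction members were Cldn1, Cldn4, Cldn7, Ocln, F11r and Tjp1, and gap junction members were Gja1, Gjb2 and Gjb6. All 9 names were found in the table, once each, and 8 of them reached the minimum mean of 1 FPKM over all libraries that was set for testing. Cldn7 was below it. Libraries came from wild-type C57BL/6 mice in groups of 3, sorted as CD49f positive and CD34 negative cells of plantar skin. Aged mice were 24 months old, and their diet is not given in the labels. HFD mice were 5 months old and ate a high-fat diet, and Control mice were 5 months old and ate a normal diet. Whether replicate samples are different animals is not given either, so each p-value reflects only the spread between samples, which may be technical.

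Tight junctions seal the space between neighbouring epithelial cells. Claudins and occludin form the strands in the membrane, JAM proteins sit beside them, and ZO scaffold proteins tie the strands to actin. In the epidermis the working seal lies in the granular layer, although several of its proteins are made in deeper layers as well. Gap junctions are channels built from connexins, through which cells exchange ions and small metabolites. Human mutations in GJB2 and GJB6 cause thickened palm and sole skin together with deafness or hair and nail defects.

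F11r and Gjb6 were the members with a called difference between groups, and Gjb2 and Cldn4 were those whose libraries spread most within groups. Their promoters are shown for that reason, as the 250 bases before the RefSeq start on GRCm38.p6, written on the gene's strand. Capitals mark the AP-1 motif TGANTCA, which reads the same on both strands, and the grainyhead motif AACNGGTT on either strand. F11r lies at chr1:171437311-171437560 on the plus strand. Gjb6 lies at chr14:57133612-57133861, Gjb2 at chr14:57104703-57104952 and Cldn4 at chr5:134946935-134947184, all on the minus strand.
F11r: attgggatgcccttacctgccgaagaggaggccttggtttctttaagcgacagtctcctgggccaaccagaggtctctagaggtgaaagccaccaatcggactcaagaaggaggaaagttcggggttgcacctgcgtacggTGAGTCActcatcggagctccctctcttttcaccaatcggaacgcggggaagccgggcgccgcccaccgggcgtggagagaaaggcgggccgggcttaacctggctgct
Gjb6: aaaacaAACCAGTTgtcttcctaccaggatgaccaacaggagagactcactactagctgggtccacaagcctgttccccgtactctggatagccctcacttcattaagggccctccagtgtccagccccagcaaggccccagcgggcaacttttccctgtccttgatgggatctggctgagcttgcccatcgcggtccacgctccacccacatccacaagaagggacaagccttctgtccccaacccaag
Gjb2: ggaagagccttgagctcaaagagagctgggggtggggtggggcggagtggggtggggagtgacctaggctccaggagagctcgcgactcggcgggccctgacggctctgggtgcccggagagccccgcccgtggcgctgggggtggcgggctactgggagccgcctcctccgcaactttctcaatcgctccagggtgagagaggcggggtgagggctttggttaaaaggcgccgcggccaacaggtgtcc
Cldn4: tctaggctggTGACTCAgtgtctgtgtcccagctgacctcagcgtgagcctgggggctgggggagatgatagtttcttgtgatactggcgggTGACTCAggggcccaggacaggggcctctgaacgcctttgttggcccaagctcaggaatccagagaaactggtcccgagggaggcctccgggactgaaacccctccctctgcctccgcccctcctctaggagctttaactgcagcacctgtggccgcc
The Cldn4 window held 2 AP-1 matches, beginning 240 and 158 bases before the start, and the F11r window held 1, at 109 bases. Gja1 also had 1 AP-1 match, at 19 bases. Gjb6 had 1 grainyhead match, at 244 bases, and Gjb2 had neither motif. Over 32851 mouse promoter windows of the same length, 6.75% held the AP-1 letters and 1.79% the grainyhead letters. The GC box GGGCGG, left in lower case, occurred on either strand in the windows of 7 members, Gja1 and Gjb6 being without it, and in 32.7% of all windows. No AP-1 match overlapped a grainyhead match in these windows. A match is a description of the letters and not evidence of binding. Gjb2 and Gjb6 are neighbours on chromosome 14 (GENCODE on GRCm38, 57098600 to 57104702 and 57123303 to 57133611, both minus strand), with 18600 bases between the annotated genes.

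Transcript levels, in FPKM (sequenced fragments scaled to gene length and library size), differed widely between members. Over the 9 libraries Gja1 averaged 49.5 FPKM, F11r 41.3, Cldn1 26.3 and Tjp1 11.2. Gjb2 averaged 4.18 FPKM, Gjb6 3.98, Ocln 3.74 and Cldn4 2.56. Gja1 (46.3 to 55.8 FPKM over libraries) and F11r (36.6 to 48.5 FPKM) overlapped in range, and so did Gjb2, Gjb6, Ocln and Cldn4 with one another. Cldn1 and Tjp1 each overlapped with no neighbour in the order. Estimated reads per library were 11574 to 18751 for Gja1 and 40 to 273 for Cldn4, so counting error weighs most on the lowest members. HFD replicate 3 and Control replicate 3 stood apart from the rest of their groups by low levels of suprabasal marker genes such as Lor. Where leaving out either changed the sign or the call of a member difference, the value without it is given.

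**Figure D1:**
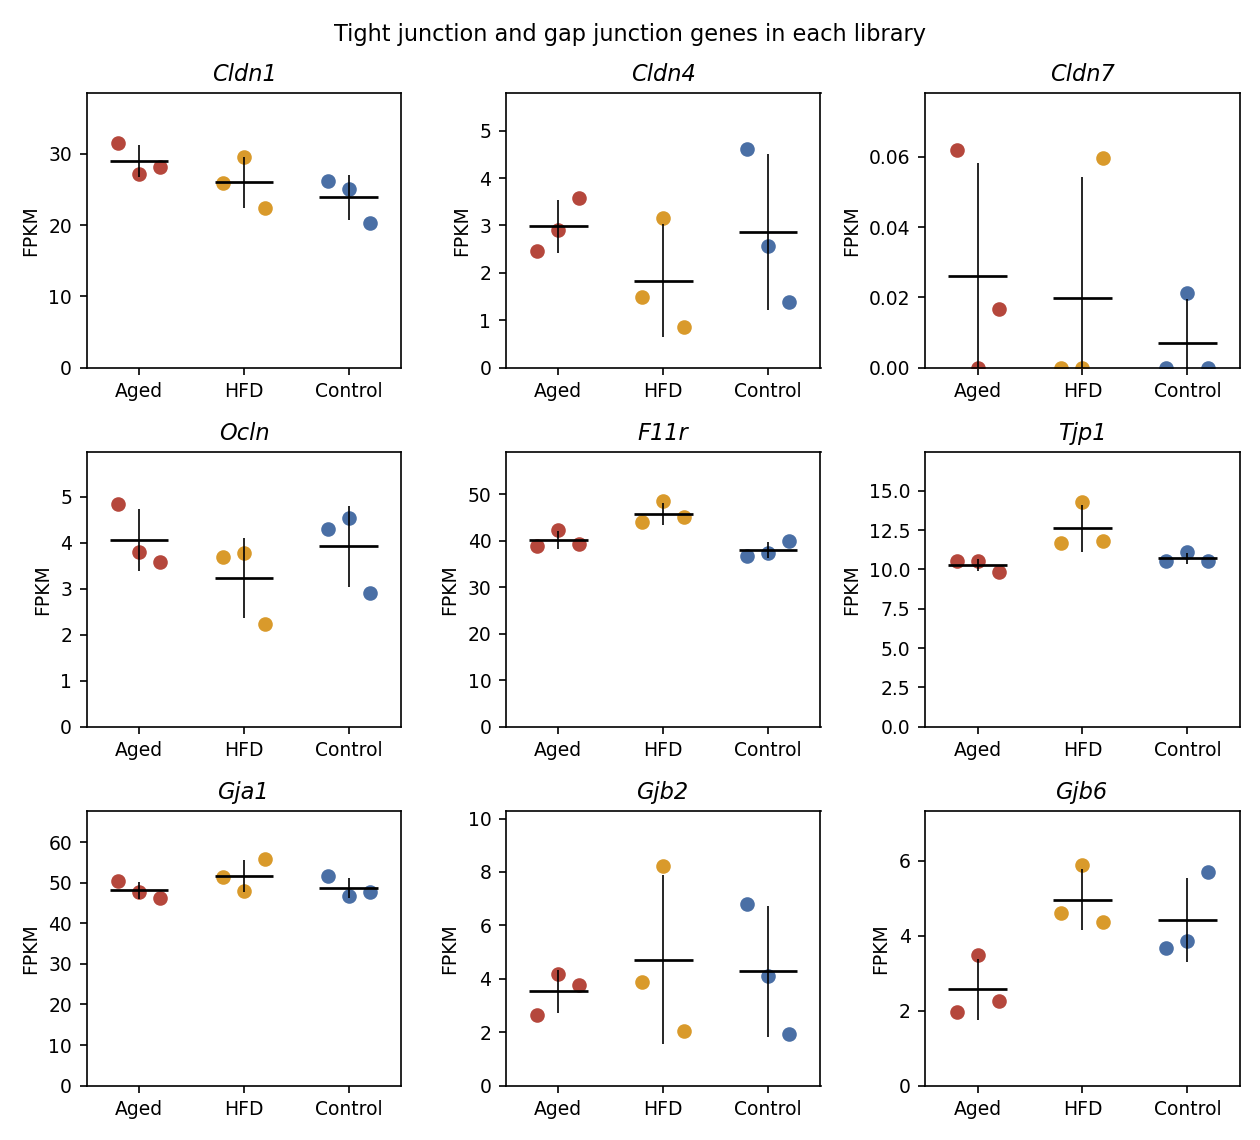
Level of each member in FPKM (vertical axis, starting at 0) in Aged, HFD and Control libraries; each point is a library, in the order of replicate 1 to 3, and the horizontal and vertical lines are the mean and SD over 3 libraries (the lower end of the SD is clipped at 0 for Cldn7). F11r is higher in all 3 HFD libraries (43.9 to 48.5 FPKM) than in any other, and Gjb6 is lower in all 3 Aged libraries (1.96 to 3.50 FPKM) than in any other.

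Among the strand-forming proteins, Cldn1, whose loss in mice lets water escape through the skin, carried most of the claudin transcript. Cldn1 (chromosome 16, 26356642 to 26371841, minus strand) had 31.5, 27.2 and 28.2 FPKM in Aged, 25.9, 29.6 and 22.4 FPKM in HFD and 26.2, 25.1 and 20.3 FPKM in Control libraries. Every Aged library lay above every Control library, and HFD overlapped both. In limma, the difference of log2(FPKM + 1) was 0.27 ± 0.11 (SE) for Aged against Control, with an unadjusted p of 0.0351 and an adjusted p of 0.159, which did not pass the threshold of 0.05. Without Control replicate 3 this difference was 0.17 (limma, adjusted p = 0.432). For HFD against Control it was 0.11 ± 0.11 (limma, adjusted p = 0.517), with the opposite sign, -0.04, after a correction for GC content.

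Cldn4 encodes a claudin of the upper epidermal layers. Its level (chromosome 5, 134945119 to 134946934, a single exon, minus strand) was 2.46, 2.91 and 3.57 FPKM in Aged, 1.49, 3.15 and 0.853 FPKM in HFD and 4.62, 2.56 and 1.39 FPKM in Control libraries. The highest library of a group exceeded the lowest 1.45 times in Aged, 3.69 times in HFD and 3.32 times in Control, and the 3 groups overlapped. Limma gave -0.44 ± 0.31 for HFD against Control (adjusted p = 0.342), 0.12 ± 0.31 for Aged against Control (adjusted p = 0.840) and 0.56 ± 0.31 for Aged against HFD (adjusted p = 0.293). The 95% interval of the last difference ran from -0.11 to 1.24, which includes 0. Without Control replicate 3 the difference of Aged against Control was -0.18 and that of HFD against Control -0.74. Without HFD replicate 3 the difference was -0.18 for HFD against Control and 0.30 for Aged against HFD.

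Cldn7, a claudin that binds EpCAM in other epithelia, was close to undetected. It had 4, 0 and 1 estimated reads in Aged, 0, 0 and 3 in HFD and 0, 1 and 0 in Control libraries. Its highest value was 0.0619 FPKM. In the 5 libraries without a read, a count of 0 allows up to 3 reads, or 0.0433 to 0.0568 FPKM, from counting error only. No comparison between groups was possible at this depth.

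Occludin, encoded by Ocln (chromosome 13, 100496507 to 100552718, minus strand), is the strand protein with the longest record as a tight junction marker. It had 4.84, 3.79 and 3.58 FPKM in Aged, 3.70, 3.78 and 2.23 FPKM in HFD and 4.31, 4.54 and 2.91 FPKM in Control libraries. The groups overlapped, with HFD replicate 3 and Control replicate 3 lowest in their groups. The differences were -0.22 ± 0.17 for HFD against Control, 0.05 ± 0.17 for Aged against Control and 0.27 ± 0.17 for Aged against HFD (limma, adjusted p = 0.401, 0.879 and 0.370 in this order). For Aged against Control the sign turned without Control replicate 3 (-0.10), without Aged replicate 1 (-0.05) and after the GC correction (-0.02). HFD against Control was -0.38 without Control replicate 3 and -0.04 without HFD replicate 3. Aged against HFD was 0.09 without HFD replicate 3.

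F11r, which encodes the adhesion receptor JAM-A, was the one tight junction member called higher in HFD against Control. F11r (chromosome 1, 171437535 to 171464603, plus strand) stood at 38.8, 42.3 and 39.3 FPKM in Aged, 43.9, 48.5 and 45.1 FPKM in HFD and 36.6, 37.3 and 39.9 FPKM in Control libraries. All HFD libraries exceeded all others, whereas Aged and Control overlapped. The mean of 45.8 ± 2.37 FPKM in HFD, against 38.0 ± 1.73 FPKM in Control (SD, n = 3 each), is a ratio of 1.21. In limma the difference was 0.27 ± 0.07 (95% interval 0.11 to 0.42, adjusted p = 0.0255). The call was lost without HFD replicate 2 (adjusted p = 0.103), HFD replicate 3 (adjusted p = 0.0593), Control replicate 1 (adjusted p = 0.0708) or Control replicate 2 (adjusted p = 0.0805), with differences of 0.22 to 0.28. Aged against Control gave 0.08 ± 0.07 (limma, adjusted p = 0.508). Whether Aged and HFD differ from each other is tested by their own comparison, in which F11r had -0.19 ± 0.07 (limma, unadjusted p = 0.0204, adjusted p = 0.124), so a difference was not established.

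Tjp1, which encodes the scaffold protein ZO-1, was also highest in HFD, but its differences were not called. Tjp1 (chromosome 7, 65296165 to 65527781, minus strand) had 10.5, 10.5 and 9.82 FPKM in Aged, 11.7, 14.3 and 11.8 FPKM in HFD and 10.5, 11.1 and 10.5 FPKM in Control libraries. Each HFD library was above each library of the other groups, and HFD replicate 2 stood highest. The difference was 0.21 ± 0.08 for HFD against Control (limma, unadjusted p = 0.0291, adjusted p = 0.104) and -0.26 ± 0.08 for Aged against HFD (limma, unadjusted p = 0.00932, adjusted p = 0.0825). Neither passed the threshold, except that the second did when libraries were weighted by their agreement with the model (adjusted p = 0.0463).

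**Figure D2:**
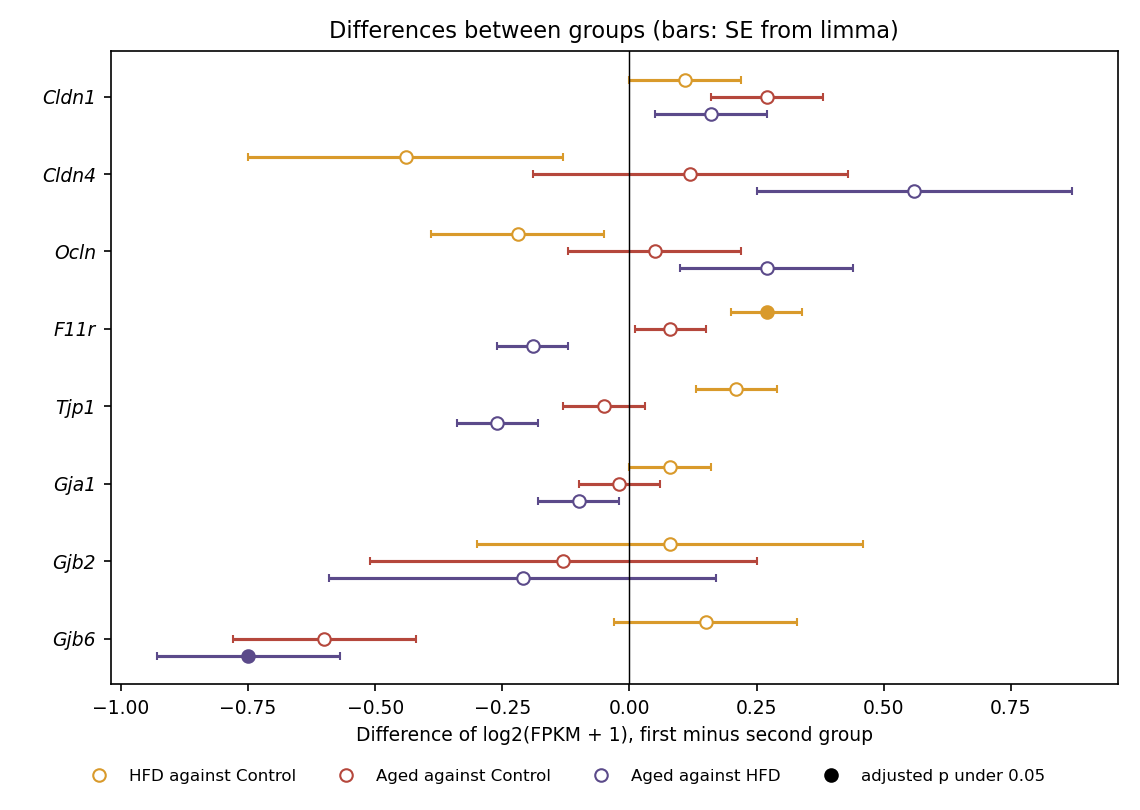
Differences of log2(FPKM + 1) between groups (horizontal axis) for the 8 tested members, with SE from limma as bars; colours give the comparison and filled points an adjusted p under 0.05. The filled points are F11r in HFD against Control (0.27) and Gjb6 in Aged against HFD (-0.75), and Cldn4 and Gjb2 have the widest bars.

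Of the 3 connexin members, Gja1, which encodes the widely expressed connexin Cx43, had the highest mean level and a narrow spread. Gja1 (chromosome 10, 56377330 to 56402513, plus strand) had 50.4, 47.6 and 46.3 FPKM in Aged, 51.4, 47.9 and 55.8 FPKM in HFD and 51.6, 46.8 and 47.8 FPKM in Control libraries. The groups overlapped throughout. The 95% interval of the difference of log2(FPKM + 1) was -0.08 to 0.25 for HFD against Control and -0.18 to 0.15 for Aged against Control (limma, adjusted p = 0.476 and 0.911). Both intervals are narrow and include 0.

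Gjb2, which encodes the connexin Cx26 that keratinocytes raise in thickened or wounded epidermis, spread more within groups than between them. It had 2.63, 4.17 and 3.78 FPKM in Aged, 3.88, 8.22 and 2.06 FPKM in HFD and 6.81, 4.12 and 1.93 FPKM in Control libraries. The highest HFD library exceeded the lowest 3.99 times, and the 3 groups overlapped. Limma gave 0.08 ± 0.38 for HFD against Control, -0.13 ± 0.38 for Aged against Control and -0.21 ± 0.38 for Aged against HFD (adjusted p = 0.908, 0.866 and 0.778 in this order). Each of the 3 differences changed sign when a single library was left out, namely HFD replicate 2 or Control replicate 3 (-0.34 and -0.29 for HFD against Control), Aged replicate 1 or Control replicate 1 (0.02 and 0.21 for Aged against Control) and HFD replicate 2 (0.21 for Aged against HFD).

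Gjb6, which encodes the connexin Cx30 and in humans is mutated in a syndrome of thickened palms and soles, was lowest in Aged. Gjb6 had 1.96, 3.50 and 2.26 FPKM in Aged, 4.61, 5.89 and 4.37 FPKM in HFD and 3.68, 3.85 and 5.69 FPKM in Control libraries. All Aged libraries were below all others, and HFD and Control overlapped. Means were 2.57 ± 0.813 FPKM in Aged, 4.96 ± 0.818 FPKM in HFD and 4.41 ± 1.12 FPKM in Control (SD, n = 3 each). Against HFD, Aged was lower by a ratio of means of 0.519, with a difference of -0.75 ± 0.18 (95% interval -1.14 to -0.37, limma, adjusted p = 0.0246). Against Control the ratio was 0.584 and the difference -0.60 ± 0.18 (limma, unadjusted p = 0.00522, adjusted p = 0.0585), which did not pass the threshold. HFD against Control gave 0.15 ± 0.18 (limma, adjusted p = 0.582). Aged and HFD mice differ in age and, since the diet of Aged mice is not given, may also differ in diet, so that age and diet cannot be told apart in that comparison.

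Both Gjb6 results lie close to the threshold. The call in Aged against HFD was lost without Aged replicate 1 (adjusted p = 0.0858), Aged replicate 3 (adjusted p = 0.0633), HFD replicate 1 (adjusted p = 0.0546) or HFD replicate 2 (adjusted p = 0.0916). It was also lost when genes of every level were tested (adjusted p = 0.0841). Conversely, among the alternatives with no block for replicate number, Aged against Control passed without Aged replicate 2, the highest Aged library (difference -0.78, adjusted p = 0.0317), and when libraries were scaled to the same total FPKM (adjusted p = 0.0431). The Aged against Control difference was smaller without Control replicate 3, the highest Control library (-0.44, limma, adjusted p = 0.189). Without Aged replicate 1, the lowest Aged library, its adjusted p was 0.191 (limma). The difference kept its negative sign in all 19 alternatives of both comparisons.

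**Figure D3:**
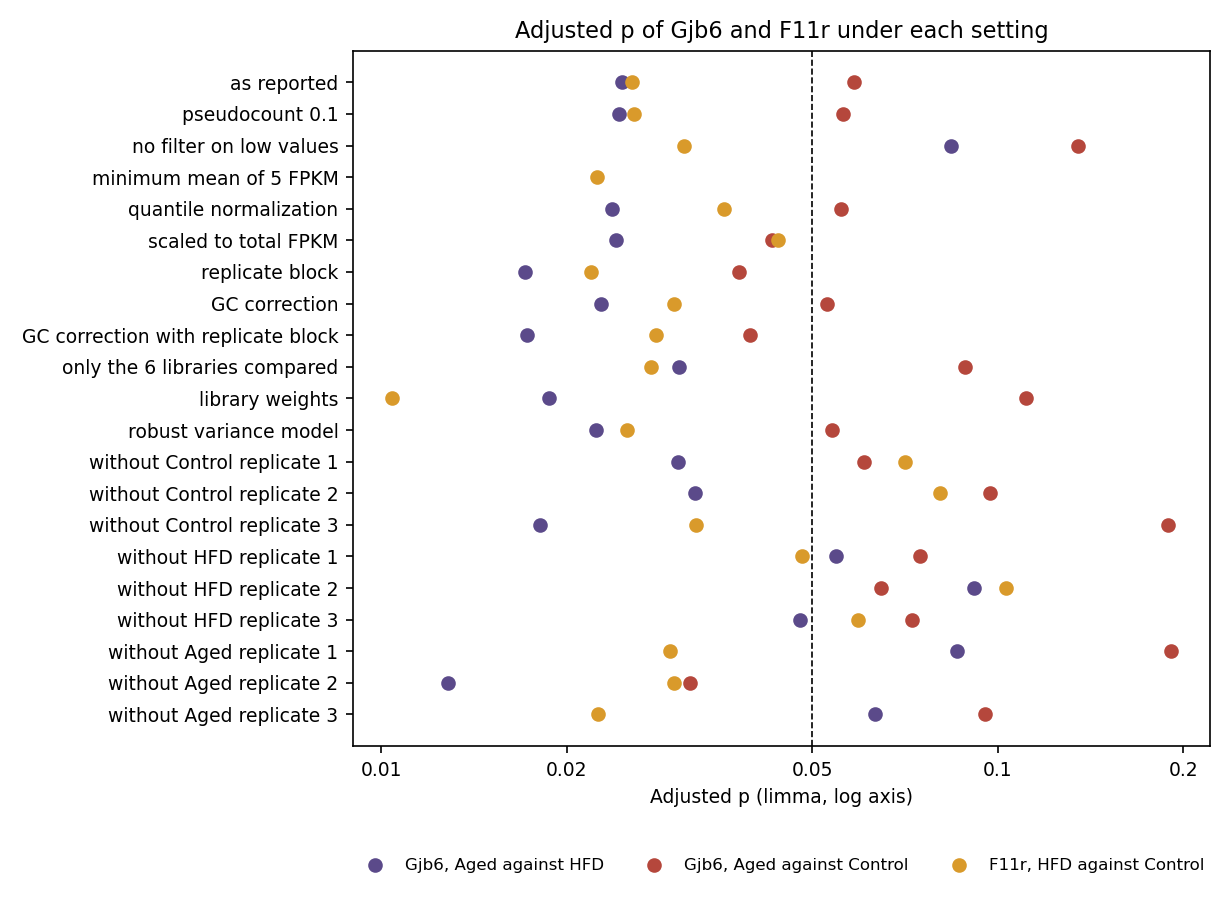
Adjusted p from limma (horizontal log axis) for Gjb6 in Aged against HFD, Gjb6 in Aged against Control and F11r in HFD against Control, as reported and under each alternative setting; the dashed line is 0.05, and Gjb6 has no point at a minimum mean of 5 FPKM because it is below it. All 3 results have points on both sides of the line. Under the alternatives, adjusted p ran from 0.0104 to 0.103 for F11r. For Gjb6 it ran from 0.0128 to 0.0916 in Aged against HFD and from 0.0317 to 0.191 in Aged against Control.

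Across the 8 tested members, 1 was called in HFD against Control, where 17.0% of the 10367 genes tested were called (8.26% higher and 8.76% lower). None was called in Aged against Control by limma, against 7.76% of all genes (4.01% higher and 3.74% lower), and 2 had an unadjusted p under 0.05, as did 25.8% of all genes. In Aged against HFD 1 was called, against 7.99% of all genes (3.54% higher and 4.45% lower). The F test among the 3 groups called F11r (adjusted p = 0.0424) and Gjb6 (adjusted p = 0.0238), against 20.4% of all genes. Groups did not overlap for 2 members in HFD against Control (40.4% of all genes), for 2 in Aged against Control (27.8%) and for 3 in Aged against HFD (29.8%). These shares are near those of all genes, so the junction members as a set did not stand out by their number of calls. The median difference over the members was 0.10, 0.02 and -0.14 in these 3 comparisons, beside 0.01, -0.01 and -0.00 over all genes tested.

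Relative to the whole connexin pool, the members were one major and a pair of minor components. Summed FPKM of the 20 connexin genes listed in the table was 152 ± 4.46 in Aged, 155 ± 7.63 in HFD and 157 ± 4.54 in Control libraries (SD, n = 3 each). Gja1 made up 31.7%, 33.5% and 31.0% of it in Aged, HFD and Control. Gjb5, another epidermal connexin gene, made up 17.3%, 16.9% and 16.0%. Gjb2 held 2.31% ± 0.497 in Aged, 2.99% ± 1.87 in HFD and 2.72% ± 1.51 in Control. Gjb6 held 1.69% ± 0.539 in Aged, 3.19% ± 0.370 in HFD and 2.81% ± 0.700 in Control. A large part of the pool lay in connexin genes not named here.

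Cldn1 made up most of the claudin pool. The summed FPKM of 32 claudin genes was 40.8 ± 2.24 in Aged, 35.0 ± 5.33 in HFD and 34.3 ± 6.38 in Control libraries, of which Cldn1 made up 70.9%, 74.2% and 70.1%. Cldn4 held 7.34%, 4.97% and 7.94%, less than Cldn12 with 11.3%, 12.4% and 14.0%. Cldn8 held 8.38%, 6.46% and 5.54%, a larger mean share than that of Cldn4 in Aged and HFD. Cldn7 held 0.0616%, 0.0665% and 0.0201%.

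**Figure D4:**
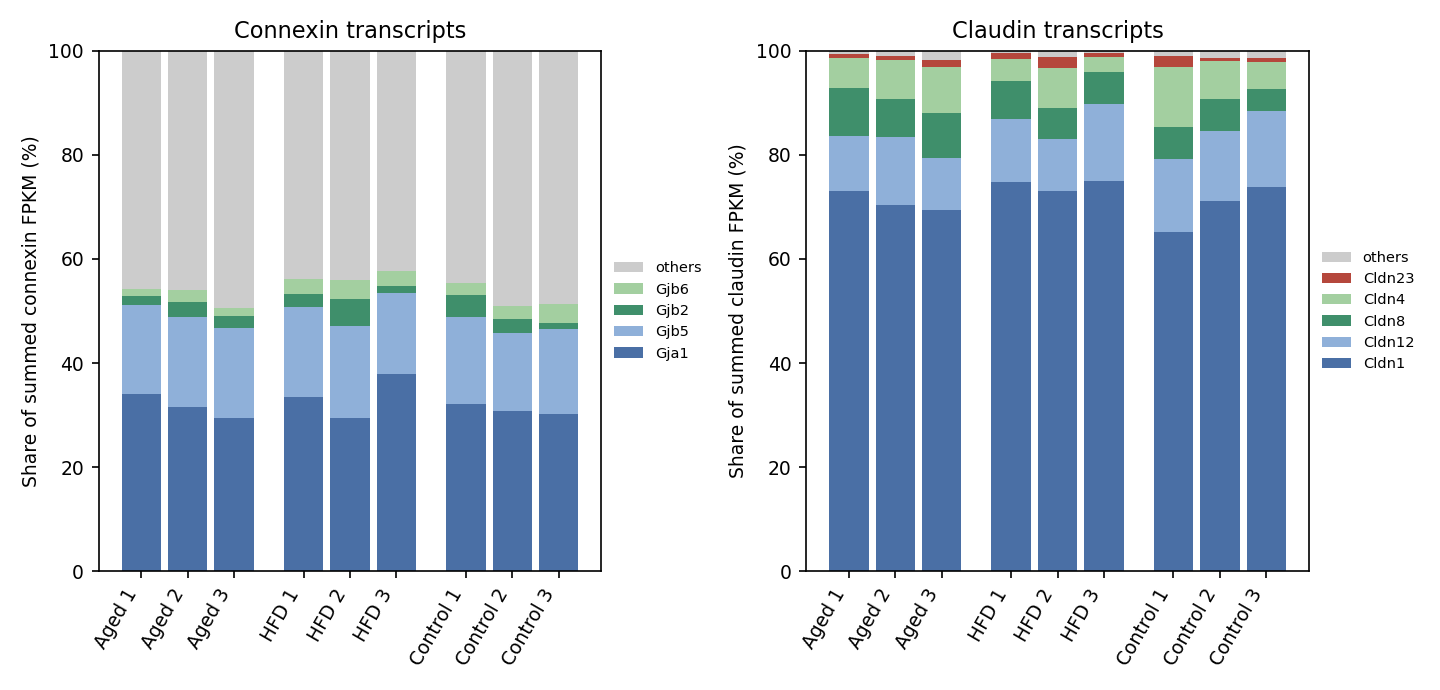
Share of each gene in the summed FPKM (vertical axis, percent) of the connexins and the claudins in each Aged, HFD and Control library; each bar is a library, each colour a gene, and grey all other genes of the family together. Gja1 takes 29.4% to 37.8% of the connexin bars and Cldn1 fills most of every claudin bar, while Gjb6 takes 1.33% to 2.31% in Aged and 2.29% to 3.62% in the other libraries.

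Members differed widely in how far their libraries spread within groups. Within-group SD of log2(FPKM + 1) was 0.64 for Gjb2 and 0.51 for Cldn4, above that of 99.6% and 99.3% of the genes tested. Gjb6 and Ocln each had an SD of 0.27, and Cldn1 had 0.17. F11r, Gja1 and Tjp1, at 0.07, 0.08 and 0.10, were below the median gene, at 0.12. A group difference in Gjb2 or Cldn4 would therefore have had to be several times larger than one in F11r to be called.

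Cldn1, Cldn4, Ocln and Gjb2 were lowest in HFD replicate 3 among HFD libraries and in Control replicate 3 among Control libraries. This pattern, noticed in the values and given as a description, held for 4 of 8 members and for 12.0% of all genes tested. It also held for 16 of the 20 tested spinous and granular markers, genes of the layers above the basal one. Lor, which encodes the granular protein loricrin, had 26.6, 31.3 and 39.6 FPKM in Aged, 17.3, 36.5 and 6.88 FPKM in HFD and 43.2, 34.3 and 13.8 FPKM in Control libraries. Relative to the group mean on the log2 scale, Gjb2 was at 0.84 in HFD replicate 2 and -0.76 in HFD replicate 3, where Lor was at 1.10 and -1.16. In the Control group, Gjb2 was at 0.67 in replicate 1 and -0.74 in replicate 3, and Lor at 0.63 and -0.94. F11r and Gja1 departed from their group means by no more than 0.11 in any library. The part that differing numbers of suprabasal cells play in the levels of Cldn1, Cldn4, Ocln and Gjb2 was not tested.

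**Figure D5:**
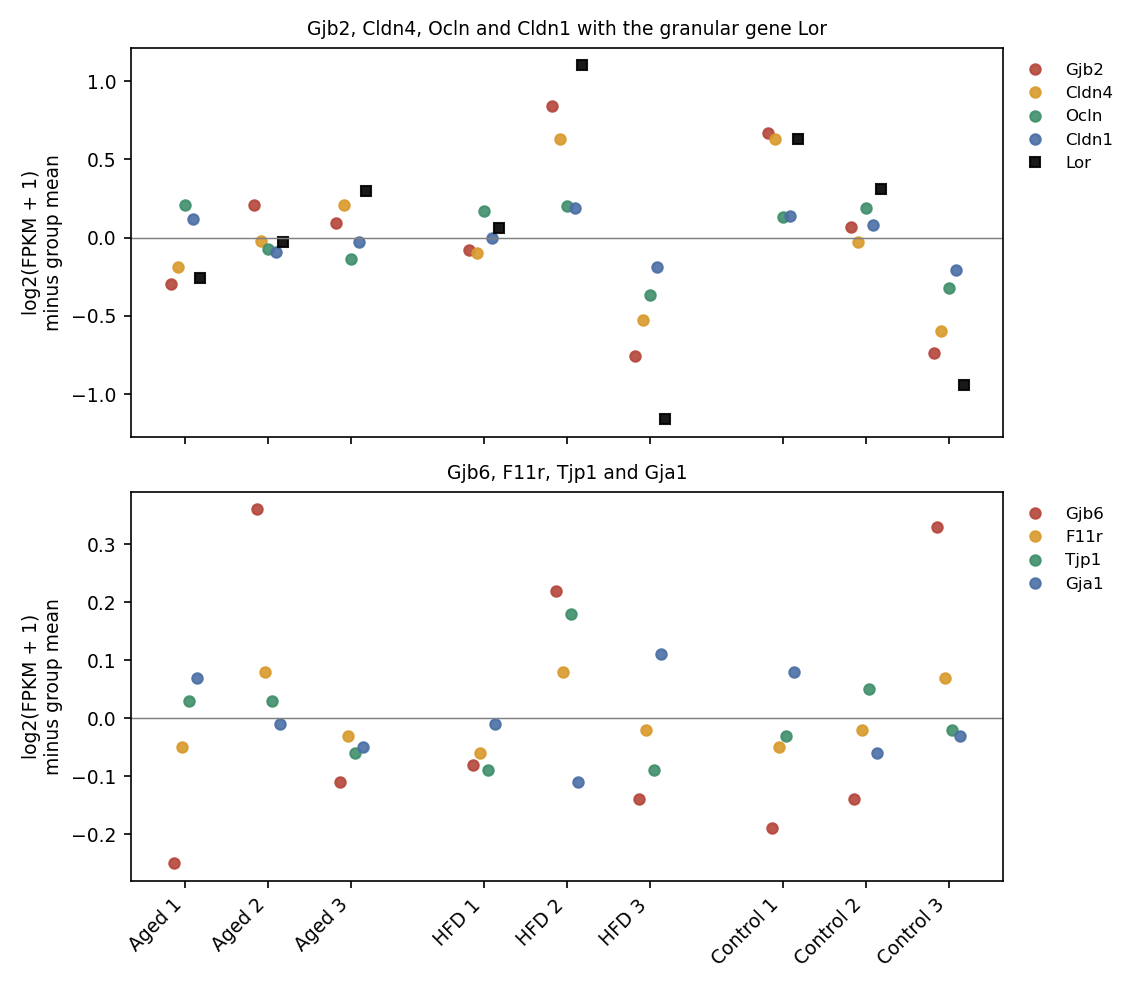
Departure of log2(FPKM + 1) from the mean of the library's own group (vertical axis) for each Aged, HFD and Control library, with the granular gene Lor as squares; points are shifted sideways for legibility, and the lower panel has a finer scale. Gjb2, Cldn4, Ocln and Cldn1 lie below 0 with Lor in HFD replicate 3 and Control replicate 3, whereas the genes of the lower panel keep within 0.36 of their group means.

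Cell markers set the frame for these levels. Depth was estimated at 23.5 to 35.8 M reads per library. Basal markers were high in every library, with Krt14 and Krt5 averaging 12461 and 11662 FPKM, and the 8 markers summed to 23849 to 24946 FPKM in Aged, 27078 to 31755 in HFD and 23952 to 30705 in Control. Of 21 spinous and granular markers 20 were tested, led by Krt10 at 4639 and Krtdap at 1780 FPKM, and the list summed to 9076 to 12499 FPKM in Aged, 7299 to 10505 in HFD and 8167 to 10545 in Control. Of these 20, 1 was called higher and 2 lower in HFD against Control, and 1 higher and 2 lower in Aged against Control. In Aged against HFD 1 was called lower. That is 15.0%, 15.0% and 5.00% in this order, beside 17.0%, 7.76% and 7.99% of all genes. Differences were positive for 9, 14 and 16 of the 20 (median -0.06, 0.19 and 0.20). For the 8 basal markers they were positive for 4, 0 and 1 (median 0.01, -0.10 and -0.18). The part of these marker differences in the members' levels was not tested. In bulk samples, fewer cells of a type and less RNA per cell cannot be told apart.

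The summed level of sweat gland markers, which a footpad sample could bring in, was highest in HFD, as was F11r. The 13 markers summed to 40.5 to 46.7 FPKM in Aged, 54.8 to 62.8 in HFD and 34.8 to 40.1 in Control, led by Slc12a2 and Sox9. Of the 5 tested, Slc12a2, Acta2 and Ehf were called higher in HFD against Control, where 8.26% of all genes were. Their means were 23.6 ± 1.28, 13.2 ± 2.08 and 9.35 ± 1.60 FPKM in HFD, against 17.0 ± 0.577, 5.68 ± 1.98 and 2.49 ± 0.624 FPKM in Control (SD, n = 3 each). Sox9 also had a higher mean in HFD than in Control, at 9.34 and 7.32 FPKM, but was highest in Aged, at 11.8 FPKM. In contrast, 7 of the 13, among them Foxc1, Aqp5, Best2 and the gland keratins, had a lower mean in HFD than in Control. In Aged against Control, Slc12a2 and Sox9 were called higher (0.31 and 0.64, limma, adjusted p = 0.0197 and 0.0226), where 4.01% of all genes were. There too 7 of the 13 had a lower mean. In Aged against HFD, Acta2 and Ehf were called lower and Foxc1 higher, where 4.45% and 3.54% of all genes were. The gland keratins Krt8, Krt18 and Krt19 stayed under 1 FPKM, at no more than 0.706, and the gland regulators Foxi1 and Foxa1 were at 0 in all libraries. The part of gland cells in the F11r and Gjb6 differences was not tested. Among melanocyte, Merkel, endothelial and mural, and erythroid lists no marker reached a mean of 1 FPKM. Langerhans and myeloid genes reached it for 3 of 9 markers, led by Cd74 and H2-Eb1, and Thy1, Dcn and Mbp were the single markers above it in the T cell, fibroblast and Schwann lists. Dcn, which encodes a matrix proteoglycan, averaged 3.78 ± 0.576 FPKM in Aged, 2.03 ± 0.531 in HFD and 5.22 ± 1.09 in Control. It was lower in HFD against Control (-1.04, limma, adjusted p = 0.00239) and higher in Aged against HFD (0.67, limma, adjusted p = 0.0248), the comparisons in which F11r and Gjb6 were called. Thy1, a surface protein gene, averaged 28.6 ± 4.06 FPKM in Aged, 34.6 ± 2.70 in HFD and 49.8 ± 3.71 in Control, and was lower than in Control both in HFD (-0.51, limma, adjusted p = 0.00807) and in Aged (-0.79, adjusted p = 0.00168). Fibroblast markers did not move together, and T cell markers did so only in Aged against HFD. Of 6 fibroblast markers, Dcn included, 2 had a higher and 3 a lower mean in HFD than in Control. In Aged against HFD 3 were higher and 2 lower. Of 7 T cell markers, Thy1 included, 3 were higher and 3 lower in HFD against Control. In Aged against Control 1 was higher and 3 were lower. In Aged against HFD 0 were higher and 6 lower, with 1 at 0 in both groups. Of 9 Langerhans and myeloid markers, 7 had a lower mean in each of the 3 comparisons. Of 5 Schwann markers, 4 were higher and 0 lower in Aged against Control, and 1 was higher and 2 lower in HFD against Control. The part of these cell types in the members' differences was not tested.

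Among genes that work beside the members, 44 other tight junction genes were listed and 18 tested. In HFD against Control 1 was higher and 1 lower, or 11.1% called, beside 17.0% of all genes (median difference 0.01). Lsr, which encodes a receptor that builds the corners where 3 cells meet, had 11.1, 11.2 and 12.9 FPKM in Aged, 7.99, 10.7 and 8.36 in HFD and 12.6, 13.0 and 12.0 in Control libraries. It fell in HFD against Control (-0.44 ± 0.10, limma, adjusted p = 0.0163), with all HFD libraries below all others. Cxadr, an adhesion receptor of the JAM type, rose in HFD against Control, at 21.6 ± 1.65 FPKM in HFD and 17.3 ± 1.08 FPKM in Control (0.30 ± 0.08, limma, adjusted p = 0.0286). Both calls were lost after the GC correction, which gave -0.27 (adjusted p = 0.0723) for Lsr and 0.17 (adjusted p = 0.195) for Cxadr. Lsr also lost its call without HFD replicate 1 or 3 or Control replicate 2 (adjusted p = 0.0617, 0.0558 and 0.0601), and Cxadr without any 1 of the 3 HFD libraries or Control replicate 2 or 3 (adjusted p = 0.0502 to 0.112) and with scaling to total FPKM (adjusted p = 0.0742).

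No other tight junction gene was called by limma in Aged against Control, where 6 of 18 had an unadjusted p under 0.05 beside 25.8% of all genes (median 0.13). None was called by limma in Aged against HFD either, where 7 of 18 had one beside 24.4% of all genes (median 0.09), although Lsr was called without HFD replicate 2 (0.47, adjusted p = 0.0226). Prkci, a polarity kinase that phosphorylates junction proteins, averaged 44.0 ± 3.35 FPKM in Aged, 38.2 ± 1.56 in HFD and 36.9 ± 3.07 in Control. Its difference in Aged against Control was 0.25 ± 0.08 (limma, adjusted p = 0.0815). Afdn, which links nectin adhesion to actin, averaged 31.6 ± 1.18 FPKM in Aged, 26.4 ± 0.461 in HFD and 27.5 ± 3.40 in Control, and was not called with all libraries. Without Control replicate 3 it was called higher in Aged against HFD (0.25, limma, adjusted p = 0.0377).

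Of 20 other gap junction genes, pannexins included, 4 were tested and none was called by limma. An unadjusted p under 0.05 was found for 0 of the 4 in HFD against Control, beside 34.0% of all genes (median -0.08), for 3 in Aged against Control, beside 25.8% (median -0.07), and for 1 in Aged against HFD, beside 24.4% (median -0.02). Gjb5 averaged 26.3 ± 0.852 FPKM in Aged, 26.2 ± 2.98 in HFD and 25.2 ± 2.10 in Control.

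Of 27 partners and regulators listed 23 were tested, and in HFD against Control 5 were higher and 1 lower (median 0.06). That is 26.1% called, beside 17.0% of all genes, and whether this list differs from others was not tested. Epcam, a surface protein that binds and stabilises claudins, had 40.5, 40.7 and 39.1 FPKM in Aged, 44.6, 45.3 and 39.1 in HFD and 29.9, 27.6 and 24.2 in Control libraries. Every Aged and HFD library lay above every Control library. Epcam rose in HFD against Control (0.64 ± 0.09, limma, adjusted p = 0.00166) and in Aged against Control (0.55 ± 0.09, adjusted p = 0.00459). Both calls held in all 20 alternatives, with adjusted p of no more than 0.01 and 0.0207.

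Transcription factors on this list moved in both directions in HFD. Elf3, an epithelial ETS factor, rose to 1.84, 2.43 and 1.73 FPKM in HFD, against 0.694, 0.898 and 0.679 FPKM in Control libraries (0.77 ± 0.16, limma, adjusted p = 0.00948). Its means in Aged and Control, 0.996 and 0.757 FPKM, were under the minimum of 1 FPKM, so Elf3 was tested only through its HFD level. Snai2, a repressor of claudin and occludin genes in cultured epithelial cells, rose to 42.4 ± 5.91 FPKM in HFD, against 27.9 ± 3.42 FPKM in Control (0.58 ± 0.13, limma, adjusted p = 0.0129). Grhl1, a grainyhead factor of the epidermal barrier, fell to 8.68 ± 1.38 FPKM in HFD, against 13.2 ± 2.32 FPKM in Control (-0.55 ± 0.14, limma, adjusted p = 0.0217). Elf3 kept its call in all 19 alternatives. Snai2 lost it without HFD replicate 2 (adjusted p = 0.0505) and after the GC correction (adjusted p = 0.0575). Grhl1 lost it without HFD replicate 2 or 3 or Control replicate 1 or 2 (adjusted p = 0.0608, 0.0745, 0.0584 and 0.0842) and without the filter on low values (adjusted p = 0.0656).

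Cav1, the coat protein of caveolae, rose to 130 ± 6.90 FPKM in HFD, against 100 ± 10.8 FPKM in Control (0.38 ± 0.08, limma, adjusted p = 0.0132), a call lost without Control replicate 2 (adjusted p = 0.0568). The fifth gene higher in HFD was Itch, a ubiquitin ligase, named here only to complete the count (0.31 ± 0.08, limma, adjusted p = 0.0268). In Aged against Control 2 genes of the list were called, both higher, or 8.70% beside 7.76% of all genes (median 0.06). Prss8, a membrane protease of the epidermal barrier, had 3.69 ± 0.406 FPKM in Aged and 2.35 ± 0.478 FPKM in Control. It was the second gene called beside Epcam (0.49 ± 0.13, limma, adjusted p = 0.0385). That call was lost without Aged replicate 1 or 2, Control replicate 1 or 3 or HFD replicate 3 (adjusted p = 0.112, 0.118, 0.0793, 0.128 and 0.0515), without the filter on low values (0.0878) and with only the 6 libraries compared (0.0593). In HFD, Prss8 averaged 3.36 ± 0.508 FPKM, with every HFD library above every Control library, and HFD against Control gave 0.38 ± 0.13 (limma, adjusted p = 0.0582). That difference passed the threshold with quantile normalization (adjusted p = 0.0477), the GC correction (0.0322), library weights (0.0303) or without Control replicate 2 (0.0461).

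In Aged against HFD 1 gene of the list was higher and 2 were lower (median -0.05). That is 13.0% called, beside 7.99% of all genes (3.54% higher and 4.45% lower). Klf4, a barrier transcription factor, was higher, at 308 ± 21.4 FPKM in Aged and 226 ± 34.6 FPKM in HFD (0.46 ± 0.12, limma, adjusted p = 0.0389). Elf3 and Snai2 were lower in Aged than in HFD (-0.60 ± 0.16 and -0.50 ± 0.13, limma, adjusted p = 0.0402 and 0.0381). Klf4 lost its call without any 1 of the 3 Aged libraries or HFD replicate 1 or 2 (adjusted p = 0.0546 to 0.120). Elf3 lost it without any 1 of the 3 HFD libraries, Aged replicate 1 or 2 or Control replicate 1 or 3 (adjusted p = 0.0508 to 0.143), and Snai2 without HFD replicate 1 or 2, Aged replicate 1 or 2 or Control replicate 2 (adjusted p = 0.0517 to 0.131). With only the 6 libraries compared both lost it (adjusted p = 0.0652 for Elf3 and 0.0507 for Snai2), as did Elf3 with a pseudocount of 0.1 (0.0583) and Snai2 with quantile normalization (0.0608) and the GC correction (0.0730). All 3 were also lost without the filter on low values (adjusted p = 0.102, 0.0783 and 0.1 in this order).

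Over all 9 libraries, the genes most like the members with the smallest F test p were found among 10190 genes by Pearson's r of log2(FPKM + 1), as a description of libraries that share groups and depth. They were picked on these same values, so their calls are not independent of the members' values. For Gjb6 they were Nmt1 (r = 0.96), Rpn2 (0.96) and Eme1 (0.95), which encode a myristoyl transferase, a subunit of the oligosaccharyl transferase and a subunit of a DNA endonuclease. Eme1 was lower in Aged, at 3.44 ± 0.628 FPKM, than in HFD, at 5.36 ± 0.261 FPKM (limma, adjusted p = 0.0187). For F11r they were Capn2 (r = 0.96), Tpr (0.95) and Rad21 (0.94), which encode a calpain protease, a nuclear pore protein and a cohesin subunit. All 3 rose in HFD against Control, by 0.39, 0.30 and 0.53 (limma, adjusted p = 0.00596, 0.00935 and 0.00196). Capn2 and Rad21 were also called lower in Aged against HFD (-0.30 and -0.44, limma, adjusted p = 0.0304 and 0.00544), and Tpr was not (limma, adjusted p = 0.0682). For Tjp1 they were Ciao2b (r = 0.91), Gsdmc (0.90) and Ccsap (0.89), of which Gsdmc, a gasdermin, was called in HFD against Control (0.90, limma, adjusted p = 0.0306).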

How the data were processed

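RNA-seq of 9 sorted keratinocyte samples was analysed from 1 table of FPKM values that the authors deposited, with 22399 genes and 1 column per library. Per the submitters' processing notes, the tools were HTSeq 0.11.2, STAR 2.6.0c, cutadapt and DESeq2 1.30.0, with mm10 as the build. Which tool made the FPKM, with which gene lengths and strand setting, is not given in the sources used here. The kit was stranded, per the labels' protocols. Whole reads were recovered from low values for 97.5% to 98.3% of them (up to 30 reads, tolerance 0.02), using merged exon lengths of GENCODE on GRCm38, which matched 22285 identifiers. Estimated depth was 23.5 to 35.8 M reads. RefSeq places a noncoding RNA over 38 bases of Gjb2 and a small nucleolar RNA over Ocln, whose reads cannot be told apart if strand was ignored. At most 0.868% of the 50-base stretches of a member, F11r, occur in other genes.

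Differences were fitted with limma 3.58.1 in R 4.3.3 (trended variance, two-sided) on log2(FPKM + 1), which understates changes of low genes, for 10367 genes averaging 1 FPKM or more over all libraries, in 1 model with a mean per group (6 residual and 5.50 prior degrees of freedom). P-values were Benjamini-Hochberg adjusted over all genes tested and called under 0.05, and the steps were tested on simulated data. Members and lists were chosen with earlier results of these data known. Named genes are the members, up to 6 called genes by F test p and the 2 most abundant of each list, the 3 genes most like each of 3 members, and the 2 most abundant markers per cell type; some genes that this rule picks out are not reported here. Promoters come from RefSeq on GRCm38.p6 and were read with Python 3.11.15 and pandas 2.3.3. Alternatives were a pseudocount of 0.1, no filter or a minimum mean of 5 FPKM, quantile normalization, scaling to total FPKM, a GC correction by loess (span 0.5), a replicate block, both of these together, only the 6 libraries compared, library weights, a robust variance model, and leaving out each library.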

Additional observations from a re-analysis of the deposited data

How the results depend on the processing

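Of 468 alternative values for the 24 member differences, 438 kept direction and side of the threshold, 9 lost a call, 5 gained one and 16 changed sign. Members called in HFD against Control numbered 1, and 0 to 1 when a library was left out. In Aged against Control they numbered 0, but 1 (Gjb6) with scaling to total FPKM, the replicate block or the GC correction with the block, and 0 to 1 with a library left out. In Aged against HFD they numbered 1, but 0 without the filter on low values or with a minimum mean of 5 FPKM, which leaves Gjb6 untested, 2 with library weights, and 0 to 1 with a library left out. In the F test they numbered 2, but 1 without the filter, with a minimum of 5 FPKM, quantile normalization or scaling to total FPKM, 3 with library weights, and 0 to 2 with a library left out. Except for that minimum, the cause was not tested.

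With the GC correction, alone or with the block, signs changed in HFD against Control for Cldn1 (-0.04), Gja1 (-0.04) and Prkci (-0.04), in Aged against Control for Ocln (-0.02) and in Aged against HFD for Gjb5 (-0.02), which also changed sign with library weights (-0.03). With a library left out, differences that changed sign ranged, in HFD against Control, from -0.34 to 0.46 for Gjb2, -0.02 to 0.10 for Prkci, -0.15 to 0.00 for Afdn and -0.02 to 0.14 for Gjb5. In Aged against Control they ranged from -0.18 to 0.44 for Cldn4, -0.10 to 0.15 for Ocln, -0.05 to 0.02 for Gja1, -0.50 to 0.21 for Gjb2, -0.01 to 0.11 for Gjb5 and -0.01 to 0.19 for Snai2. In Aged against HFD they ranged from -0.58 to 0.21 for Gjb2 and -0.08 to 0.08 for Gjb5. None of the differences that changed sign was called in any alternative run, and the cause was not tested.

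Same-numbered replicates were not shown to pair: correlations of their deviations from group means ran from -0.05 to 0.27, and not every library was closest to its own number. Pairs of replicate 3 were the highest, at 0.19 to 0.27, beside -0.05 to 0.12 for replicates 1 and 2. Each library of replicate 3 was closest to another of replicate 3, and the reason was not tested. With the replicate block Gjb6 in Aged against Control was -0.60 (adjusted p = 0.0380), and with the GC correction as well -0.62 (adjusted p = 0.0397). The block also brought under the threshold Prss8 and Klf4 in HFD against Control (adjusted p = 0.0216 and 0.0389) and Grhl1 in Aged against HFD (adjusted p = 0.0322). All genes called were 1764 in HFD against Control, 1161 with the GC correction and 749 to 2109 with a library left out. In Aged against Control they were 804, 469 with only the 6 libraries compared and 300 to 1247 with a library left out. In Aged against HFD they were 828, 541 without the filter and 379 to 782 with a library left out. In the F test they were 2110, and 1167 to 2474 with a library left out. Low read numbers limit Cldn7, at 0 to 4 estimated reads per library. Cldn4 had 40 to 273, and the part of counting error in its spread was not tested.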
